A study of Mus musculus with 18 samples.

Results

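The transcripts of the mitochondrial genome were followed in mouse oocytes arrested at metaphase II of meiosis (MII oocytes). Members were all rows of the oocyte gene tables whose Ensembl ID carries a mouse symbol beginning with mt-, which gave 37 of 55471 rows: 13 messenger RNAs, 2 rRNAs and 22 tRNAs. There were 3 wild-type (WT) libraries and 3 libraries of genotype Isca2 -/-, called KO in their titles. Isca2 codes for a factor that helps build iron-sulfur clusters inside mitochondria. The sources used here do not give the age or strain of the females, the part of Isca2 that was removed, or the number of oocytes and animals per library; the spread that p-values rest on may thus be technical. The labels describe hormone priming and Isca2+/- crosses only for embryos, and the amplification and library steps only for blastocysts. Methylation data of blastocysts were not used here.

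Isca2 itself was not lower in the KO-labelled libraries, with 14, 11 and 152 expected counts in WT replicates 1, 2 and 3 and 53, 56 and 120 in the KO-labelled libraries. Directions are given by label for that reason. The libraries held 17792157 to 30240350 expected counts. All 13 oocyte markers had counts in all 6 libraries, with a summed level of 19500 to 21400 CPM (counts scaled to a common library size, by edgeR). WT replicate 3 stood apart: 11 macrophage and blood markers summed to 1210 CPM there and to 5.93 to 10.1 CPM elsewhere. Il1b (432 CPM) and Adgre1 (289 CPM) were the highest of them there. The haemoglobin genes Hba-a1 and Hbb-bs were near the floor, at 0.172 and 0.103 CPM, and Hbb-bs had 0.317 CPM in KO replicate 3. Single oocyte markers also differed there. Zp2 had 2140 CPM against 111 to 602 elsewhere, Zp3 1250 against 253 to 352, and Nlrp5 1600 against 392 to 927. Dppa3 was lower, at 5780 CPM against 7400 to 9810, while Mos and Kit lay within the range of the other libraries. Of 12 granulosa and cumulus markers, the summed level was 66.1 to 92.3 CPM in WT and 69.3 to 151 CPM in the KO-labelled libraries. Cyp19a1 alone had 51.2 to 64.7 CPM in every library. KO replicate 3 had the highest sum, with Inha at 36.5 CPM there, against 0.146 to 5.70 CPM elsewhere. The defining marker Amh was at 0 in all libraries but KO replicate 1. For 3 of the 12 markers every KO-labelled library lay above every WT library, a pattern of 6.48% of all tested genes. Inhbb had 0 to 0.0438 CPM in WT and 2.15 to 13 CPM in KO, Hsd17b1 0 to 1.10 and 2.15 to 20.1 CPM, and Fshr 0 to 0.394 and 0.728 to 4.90 CPM. Ptgs2 and Ptx3 were instead highest in WT replicate 3, at 27.7 and 3.28 CPM, against 0 to 1.96 and 0 to 0.056 CPM elsewhere. Tnfaip6 had 3.66 CPM in WT replicate 3, 6.44 in KO replicate 2 and 0 elsewhere. These markers were picked once their values were known, and their part in the results on the members was not tested. Results are given with and without WT replicate 3.

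The mitochondrial genome is a small circle that encodes only core subunits of the respiratory chain and the RNAs needed to translate them; all other mitochondrial proteins come from nuclear genes. Both of its strands are transcribed as long precursors, and tRNAs that lie between the other genes mark the sites where the precursors are cut. The oocyte is rich in mitochondria and passes its mitochondrial genomes to the embryo. The messengers encode 7 subunits of complex I, the NADH dehydrogenase (mt-Nd1 to mt-Nd6 and mt-Nd4l), 1 of complex III (mt-Cytb, cytochrome b), 3 of complex IV, the cytochrome c oxidase (mt-Co1 to mt-Co3), and 2 of complex V, the ATP synthase (mt-Atp6 and mt-Atp8). By textbook assignment 28 of the genes are encoded on the heavy-strand side and 9 on the light-strand side, namely mt-Nd6 and 8 tRNAs. RefSeq (GRCm38.p6) places each member on chromosome MT, and for all 37 its length there equals the length in the files.

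The 22 tRNA rows could not be measured in these libraries. They were 59 to 75 nucleotides long, their effective length (transcript length less the typical fragment length) was listed as 0 in every library, and each was listed at 0 counts. Of the 1030 rows of any genome origin that were no longer than the longest of them, 1 had any count. No tRNA therefore passed the low-count filter, and no statement on mitochondrial tRNA between genotypes can be made from the oocytes. Sperm small RNA of the same series, a different assay, did hold mitochondrial tRNA sequence, with 41891 and 38641 such reads in WT (20.34% and 5.496% of the reads listed) and 137646 and 101889 in the KO libraries (19.58% and 13.64%). The mitochondrial tRNA sequence with the most reads was annotated to mitochondrial tRNA histidine, the product of mt-Th, and is shown as an example of RNA that the oocyte tables cannot hold, with its anticodon in capitals.
mt-Th fragment: caaaaaacattagactGTGaatctgac

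The 13 messengers and 2 rRNAs, 15 members in all, passed the filter. Messenger rows took 1.75%, 1.87% and 1.20% of all counts in WT replicates 1, 2 and 3, and 1.83%, 2.16% and 2.06% in the KO-labelled libraries. WT replicate 3 was the lowest and the groups overlapped, since WT replicate 2 lay above KO replicate 1. The rRNA rows took 0.238%, 0.255% and 0.170% in WT and 0.253%, 0.245% and 0.165% in the KO-labelled libraries, with full overlap. Such shares cannot tell fewer cells or mitochondria from less RNA in each. They also depend on all other RNA in the library.

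No member passed the edgeR test in the 6 libraries, where 0.0146% of 13680 tested genes were called. Of the 13 messengers, 12 had a positive log2 fold change of KO over WT (median 0.40, against -0.04 over all tested genes) and mt-Nd3 a negative one, except that mt-Nd2 (-0.04) and mt-Cytb (-0.09) turned negative when the messenger total was taken as library size. For 8 messengers every library labelled KO lay above every WT library, a pattern of 6.48% of tested genes. For mt-Nd3 every one lay below, a pattern of 5.96%. WT replicate 3 was the lowest WT library for all 13 messengers, which held for 37.9% of tested genes. Its level was 0.488 to 0.954 times the mean of WT replicates 1 and 2 (median 0.596). Without that library the median log2 fold change of the messengers was 0.16, against 0.01 over all genes. The same numbers, 8 above and 1 below, did not overlap with WT replicates 1 and 2, where 15.3% and 13.3% of tested genes did so. WT replicate 3, where the messengers were low, was also the library with the high macrophage markers, and oocyte markers differed there as well. The part of either in the low messenger values was not tested.

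**Figure D1:**
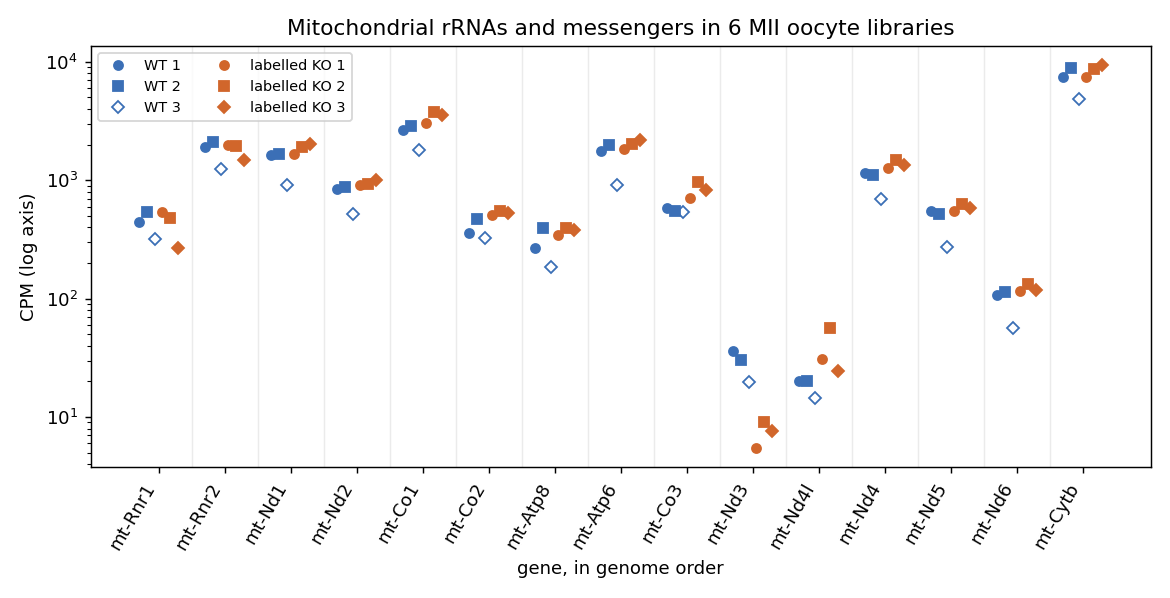
CPM (log axis) of the 2 rRNAs and 13 messengers of the mitochondrial genome, in genome order, with 1 point per library (blue WT, orange labelled KO; open diamonds are WT replicate 3). WT replicate 3 is lowest among WT for every messenger, and mt-Nd3 is the messenger whose KO points, 5.48 to 9.01 CPM, all lie below the WT points.

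mt-Nd3 was the member with the largest difference on its own row. It encodes a small membrane subunit of complex I (ENSMUSG00000064360, chromosome MT, 9459 to 9806, GRCm38.p6). It had 36.2, 30.3 and 19.7 CPM in WT replicates 1, 2 and 3 and 5.48, 9.01 and 7.58 CPM in the KO-labelled libraries. The lowest WT value was above the highest KO value. The log2 fold change was -1.97 (SE 0.31, edgeR adjusted p = 0.220). Leaving out WT replicate 3 gave -2.18 (SE 0.24, edgeR adjusted p = 0.0137), and it was the 1 member of 15 that was called, where 0.651% of 14122 genes were called and 0.0779% were called lower. DESeq2 on all 6 libraries called mt-Nd3 lower (adjusted p = 1.28e-06) and mt-Co3 higher (adjusted p = 0.0169), where it called 0.738% of genes, 0.146% lower and 0.592% higher. In the 5 libraries DESeq2 called the same pair, mt-Nd3 lower (adjusted p = 5.97e-13) where 0.538% of genes were, and mt-Co3 higher (adjusted p = 0.00198) where 3.02% were, 3.55% in all. limma-voom in the 5 libraries called 1 member, mt-Nd3 (adjusted p = 0.00634), where 0.0779% of genes were called, 0.0425% lower and 0.0354% higher. With a weight for each of the 6 libraries it also called mt-Nd3 alone (adjusted p = 0.0160), where 0.0585% of genes were called and 0.0439% were lower.

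The row of mt-Nd3 does not hold all reads of its sequence. The nuclear genome of the mouse carries copies of mitochondrial DNA, and RSEM, the counting tool, divides a read that matches several genes among them. The counts of such genes are then fractions. Of the 15 members, 8 had whole counts (to within 0.005) in every library: both rRNAs, mt-Nd1, mt-Nd2, mt-Atp8, mt-Nd5, mt-Nd6 and mt-Cytb. The other 7 did not, and apart from mt-Atp8 they are the messengers that lie between 5328 and 11544 on chromosome MT. For each of the 7 a search over all 5186 rows with fractional counts found 1 set of other rows whose counts completed it to a whole number in all 6 libraries (to within 0.01 for 2 rows and 0.015 for 3). Single partners were tried first, and pairs only where no single row completed the member. Larger sets were not searched. The partners were Gm28438 for mt-Nd3, Gm10222 for mt-Nd4l, Gm28439 for mt-Nd4, Gm28437 for mt-Co3, Gm10925 for mt-Atp6, Gm28661 with Gm13341 for mt-Co2, and Gm29216 with Gm13340 for mt-Co1.

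The partner rows have lengths close to those of the members or to part of them. Gm28438 is 345 nucleotides long and mt-Nd3 348. Gm28437 is 783 and mt-Co3 784, Gm10925 is 678 and mt-Atp6 681, and Gm10222 is 294 and mt-Nd4l 297. RefSeq lists 2 of them, both on chromosome 1 of GRCm38.p6 as pseudogenes: Gm10925 from 24613971 to 24614651 and Gm10222 from 24612404 to 24612700. The distance between their ends is 1951 nucleotides, against 1950 between the starts of mt-Atp6 and mt-Nd4l on chromosome MT. Of the rows listed for such copies, Gm29215 had no count in any library. Gm13340 and Gm13341 were named after their values were seen. All 9 partner rows together held 0.603% to 1.01% of all counts.

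The division between mt-Nd3 and Gm28438 differed between the groups. The set held 2275, 2291 and 1852 counts in WT and 2882, 2805 and 2824 in the KO-labelled libraries. Of these, mt-Nd3 was given 36.4%, 27.2% and 30.9% in WT and 4.33%, 5.73% and 7.62% in the KO-labelled libraries. The groups did not overlap (exact two-sided permutation test, p = 0.1, the smallest that 3 against 3 can give; 0.35 adjusted over the 7 sets). Gm28438 had 63.4, 81.1 and 44.1 CPM in WT and 121, 148 and 92.0 CPM in the KO-labelled libraries, all of them above all WT (log2 fold change 0.94, SE 0.26, edgeR adjusted p = 0.766). DESeq2 called Gm28438 higher in 6 libraries (adjusted p = 0.0489) and without WT replicate 3 (0.00944), where 0.592% and 3.02% of genes were. Of the other partner rows it called Gm28437 (0.00982 and 2.81e-05) and Gm29216 (0.00644 and 8.86e-05) higher in both fits. edgeR and limma-voom called no partner row. The sum of mt-Nd3 and Gm28438 was 99.7, 111 and 63.9 CPM in WT and 126, 157 and 99.6 CPM in the KO-labelled libraries. The sums overlapped, since KO replicate 3 lay within the WT range.

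Counted as this sum, mt-Nd3 sequence was not lower in the KO-labelled libraries. Its log2 fold change was 0.48 (SE 0.25, edgeR adjusted p = 0.768), in place of -1.97 on its own row. Leaving out WT replicate 3 gave 0.27 (SE 0.18, edgeR adjusted p = 0.634), in place of -2.18. The sum was added after the data were seen. Whether the reads on Gm28438 came from nuclear or from mitochondrial RNA cannot be told apart in gene-level counts.

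**Figure D2:**
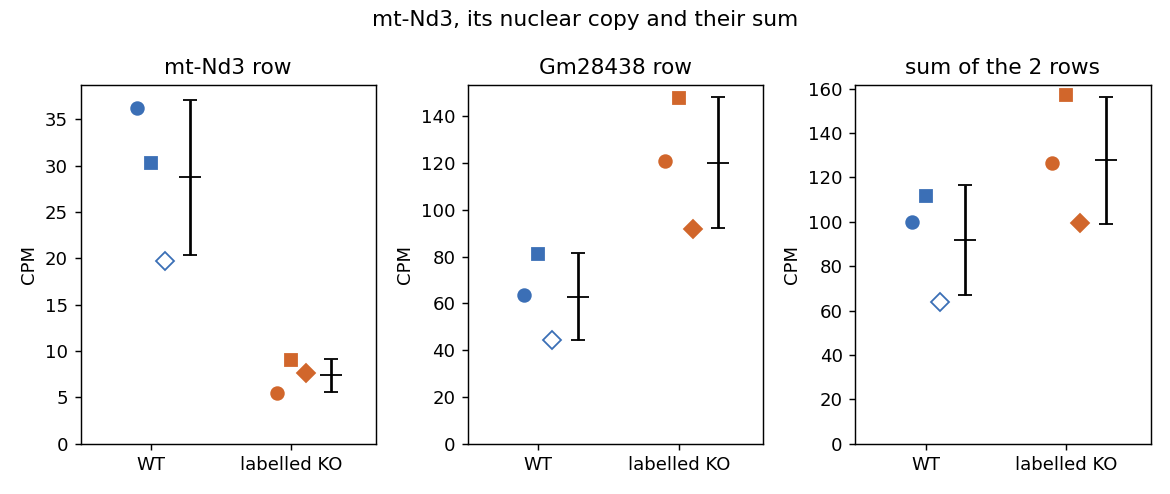
CPM of mt-Nd3, of Gm28438 and of their sum in each library, on axes that start at 0 (circles, squares and diamonds are replicates 1, 2 and 3; the open diamond is WT replicate 3; black bars are mean ± SD, n = 3). mt-Nd3 lies at 28.8 ± 8.36 in WT and 7.36 ± 1.78 in the KO-labelled libraries, Gm28438 at 62.9 ± 18.5 and 120 ± 28.03, and the sum at 91.6 ± 24.8 and 128 ± 28.7.

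The other 6 members with partner rows did not show a change of that size in their division. mt-Co1 was given 87.7%, 87.3% and 86.9% of its set in WT and 85.3%, 84.6% and 84.1% in the KO-labelled libraries, groups that did not overlap (exact permutation test, p = 0.1, 0.35 adjusted). For mt-Nd4 the share was 99.6% to 99.8% in every library. mt-Co2 had 28.1% to 33.1% and mt-Atp6 18.5% to 24.5%, so most reads of these sequences stood on Gm28661 and Gm10925. mt-Co3 had 34.9% to 49.9%, with its highest value in WT replicate 3. mt-Nd4l had 21.3%, 23.6% and 31.1% in WT and 35.4%, 49.6% and 29.7% in the KO-labelled libraries. These groups overlapped.

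**Figure D3:**
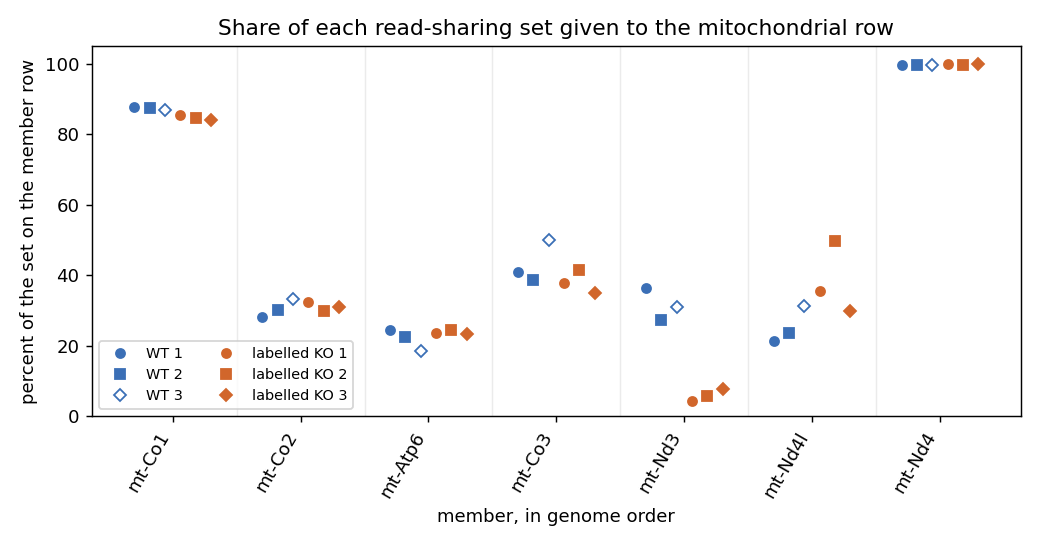
Share of the counts of each read-sharing set that stands on the mitochondrial row, in percent, with 1 point per library (blue WT, orange labelled KO). The KO points of mt-Nd3, at 4.33% to 7.62%, lie far below its WT points at 27.2% to 36.4%, whereas mt-Nd4 stays at 99.6% to 99.8%.

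The median log2 fold change was 0.51 over the 3 messengers of complex IV, 0.40 over the 7 of complex I and 0.39 over the 2 of complex V, and without WT replicate 3 it was 0.34, 0.15 and 0.14. mt-Co3, a core subunit of cytochrome c oxidase (chromosome MT, 8607 to 9390), had 580, 549 and 538 CPM in WT and 704, 974 and 835 CPM in the KO-labelled libraries. Every KO value was above every WT value, and WT replicate 3 was close to the other WT libraries. The log2 fold change was 0.59 (SE 0.14, edgeR adjusted p = 0.612) and 0.57 (SE 0.13, adjusted p = 0.112) without WT replicate 3. Summed with Gm28437 it had 1420, 1417 and 1078 CPM in WT and 1861, 2346 and 2394 CPM in the KO-labelled libraries. The log2 fold change of this sum was 0.75 (SE 0.16, edgeR adjusted p = 0.543), and 0.63 (SE 0.12, adjusted p = 0.0563) without WT replicate 3. It stayed short of the threshold in both.

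mt-Co1, which holds the catalytic heme centre of complex IV (chromosome MT, 5328 to 6872), had 2635, 2849 and 1795 CPM in WT and 3043, 3756 and 3531 CPM in the KO-labelled libraries. The groups did not overlap. Its log2 fold change was 0.51 (SE 0.20, edgeR adjusted p = 0.766), and 0.33 (SE 0.11) without WT replicate 3. mt-Co2, the subunit that takes electrons from cytochrome c (chromosome MT, 7013 to 7696), had 357, 474 and 327 CPM in WT and 507, 547 and 524 CPM in the KO-labelled libraries. The groups did not overlap, but they did once Gm28661 and Gm13341 were added, at 1271, 1567 and 989 against 1557, 1843 and 1692 CPM. The log2 fold change of mt-Co2 was 0.45 (SE 0.15) on its own row and 0.41 (SE 0.18) for the sum. Without WT replicate 3 these were 0.34 (SE 0.13) and 0.26 (SE 0.12).

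Of the complex I messengers, mt-Nd1 (chromosome MT, 2751 to 3707), a membrane subunit near the quinone site, had 1647, 1670 and 919 CPM in WT and 1671, 1897 and 2010 CPM in the KO-labelled libraries. The lowest KO value and the highest WT value were almost equal. mt-Nd2 (3914 to 4951), a proton-pumping subunit, had 848, 883 and 522 against 904, 936 and 996 CPM. mt-Nd4 (10167 to 11544), also a proton-pumping subunit, had 1152, 1118 and 701 against 1261, 1489 and 1341 CPM. Their log2 fold changes were 0.40 (SE 0.23), 0.33 (SE 0.20) and 0.46 (SE 0.20), and without WT replicate 3 they were 0.16 (SE 0.10), 0.13 (SE 0.09) and 0.26 (SE 0.10).

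mt-Nd5 (chromosome MT, 11742 to 13565), the largest proton-pumping subunit, had 553, 518 and 271 CPM in WT and 549, 634 and 581 CPM in the KO-labelled libraries. These groups overlapped. Its log2 fold change was 0.40 (SE 0.26), and 0.14 (SE 0.10) without WT replicate 3. mt-Nd4l, a short subunit whose reading frame runs into mt-Nd4 (9877 to 10173), had 20.2, 20.1 and 14.4 CPM in WT and 31.0, 56.3 and 24.5 CPM in the KO-labelled libraries. KO replicate 2 was far above the rest. The log2 fold change of mt-Nd4l was 1.03 (SE 0.33, edgeR adjusted p = 0.766), the highest of the messengers on their own rows. It was 0.88 (SE 0.31) without WT replicate 3 and 0.61 without KO replicate 2. Summed with Gm10222 it was 0.32 (SE 0.27) with overlapping groups, and 0.07 (SE 0.16) without WT replicate 3.

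mt-Cytb, the mitochondrially encoded subunit of complex III (chromosome MT, 14145 to 15288), had 7405, 8790 and 4822 CPM in WT and 7487, 8631 and 9391 CPM in the KO-labelled libraries. Its log2 fold change was 0.28 (SE 0.23), and 0.07 (SE 0.12) without WT replicate 3. mt-Atp6, part of the proton channel of complex V (7927 to 8607), had 1756, 1994 and 915 against 1842, 2011 and 2206 CPM. mt-Atp8 (7766 to 7969), whose frame overlaps that of mt-Atp6, had 268, 397 and 184 against 342, 395 and 383 CPM. In all 3 genes the groups overlapped. The log2 fold changes of mt-Atp6 and mt-Atp8 were 0.38 (SE 0.27) and 0.40 (SE 0.26), and 0.11 (SE 0.11) and 0.17 (SE 0.16) without WT replicate 3. Without WT replicate 2, mt-Cytb, mt-Atp6 and mt-Atp8 were at 0.48, 0.60 and 0.73.

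**Figure D4:**
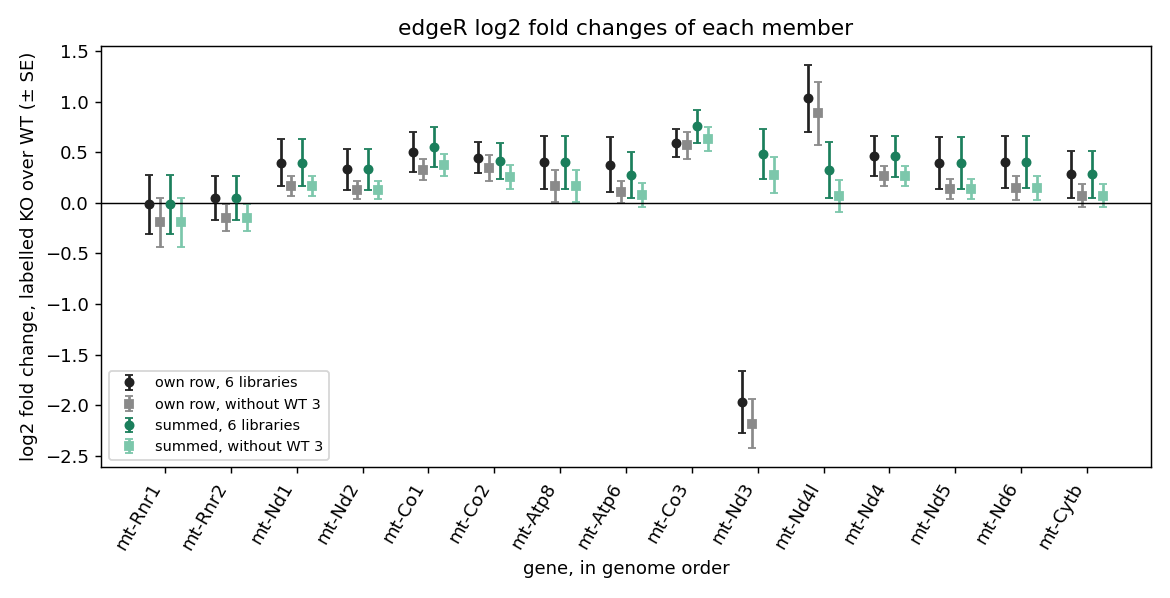
edgeR log2 fold change of KO over WT (± SE) for each rRNA and messenger in genome order, from its own row or summed with the nuclear rows that share its reads, with all 6 libraries or without WT replicate 3. Summing moves mt-Nd3 from -1.97 to 0.48 and mt-Nd4l from 1.03 to 0.32, and leaving out WT replicate 3 brings most messengers closer to 0.

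After each member was summed with its partner rows, all 13 messengers had a positive log2 fold change, between 0.28 and 0.75 (median 0.40) and between 0.07 and 0.63 (median 0.16) without WT replicate 3. None was called. The background was 0.0146% of 13671 genes with 6 libraries and 0.631% of 14113 genes without WT replicate 3, 0.560% higher and 0.0709% lower. The 6 messengers with whole counts gave 0.28 to 0.41 on their own rows, and 0.07 to 0.17 without that library. Whole counts do not show that a gene has no nuclear copy, and mt-Atp8 lies among members with partner rows.

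The rRNAs form the cores of the small and large mitochondrial ribosomal subunits. In the fit on all 6 libraries they did not share the higher values of the messengers. mt-Rnr1 (12S, chromosome MT, 70 to 1024) had 444, 543 and 322 CPM in WT and 544, 482 and 269 CPM in the KO-labelled libraries. mt-Rnr2 (16S, 1094 to 2675) had 1915, 2110 and 1253 against 2003, 1957 and 1489 CPM. In both genes the groups overlapped. KO replicate 3 was the lowest KO library, and for mt-Rnr1 the lowest of all 6. Their log2 fold changes were -0.02 (SE 0.29) and 0.05 (SE 0.22), and -0.19 (SE 0.24) and -0.15 (SE 0.13) without WT replicate 3. Both were positive without KO replicate 3, at 0.23 (SE 0.24) and 0.17 (SE 0.25). Without WT replicate 2 they were 0.18 (SE 0.31) and 0.20 (SE 0.23). The contrast with the messengers thus depended on single libraries, and it was not tested.

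The ratio of rRNA to messenger TPM (the deposited share of transcripts, scaled to effective length) was 0.0532, 0.0490 and 0.0498 in WT and 0.0525, 0.0426 and 0.0274 in the KO-labelled libraries. KO replicate 3 set most of the distance: the mean log2 difference was -0.36, and -0.10 when that library was left out. The level of the ratio rests in large part on mt-Atp8, the member with the highest TPM. Its 19331 to 31463 TPM stand on an effective length of 13.1 to 17.1 nucleotides. With counts in place of TPM the mean log2 difference was -0.357. The ratio of mt-Rnr2 to mt-Rnr1 was 2.03 to 2.28 in WT and 1.96, 2.16 and 2.91 in the KO-labelled libraries, again with KO replicate 3 apart. That library also had the highest granulosa marker sum, whose part in this was not tested. Sums and ratios over the members were not tested. The library steps of the oocytes are not described, so the ratio of rRNA to messenger may not be that in the cell.

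mt-Nd6, the light-strand messenger of a complex I subunit (chromosome MT, 13552 to 14070), followed its heavy-strand neighbours. It had 108, 113 and 56.4 CPM in WT and 116, 133 and 119 CPM in the KO-labelled libraries, without overlap (log2 fold change 0.41, SE 0.25, and 0.15, SE 0.12, without WT replicate 3). Its ratio to mt-Nd5, which it overlaps on the opposite strand, was 1.14 to 1.28 in WT and 1.19 to 1.22 in the KO-labelled libraries by TPM. No source used here gives the strand setting, and antisense reads cannot be told apart from mt-Nd6. Against the geometric mean of the 12 heavy-strand messengers, mt-Nd6 was 0.276, 0.271 and 0.225 in WT and 0.302, 0.280 and 0.278 in the KO-labelled libraries. With summed rows per annotated length that ratio was 0.135 to 0.163 in WT and 0.146 to 0.157 in the KO-labelled libraries, so the separation was gone. The heavy-strand mean by TPM includes the own row of mt-Nd3. That row had 271 to 417 TPM in WT and 57.9 to 95.9 TPM in the KO-labelled libraries. Its part in the separation was not tested.

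Ratios between complexes overlapped between the groups on the TPM scale. Complex I to complex IV was 1.47, 1.33 and 1.07 in WT and 1.21, 1.15 and 1.19 in the KO-labelled libraries. Complex III to complex IV was 2.10, 2.28 and 1.70 against 1.74, 1.62 and 1.91. With summed rows per annotated length, complex III to complex IV was 1.15, 1.24 and 1.01 in WT and 0.941, 0.881 and 0.996 in the KO-labelled libraries, which did not overlap, and complex V to complex IV was 2.11, 2.42 and 1.96 against 1.88, 1.64 and 1.91, which did not overlap either. The mean log2 differences of these ratios were -0.27 and -0.25.

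Levels per length ranged widely among the rRNAs and messengers. Whether the oocyte RNA was selected for poly(A) or depleted of rRNA is not described. The levels of rRNAs against messengers thus cannot be taken as those in the cell. By TPM of their own rows, mt-Atp8, mt-Cytb and mt-Atp6 held ranks 1, 2 and 3 of 15 in all 6 libraries. mt-Cytb had 10791, 11978 and 7549 TPM in WT and 10462, 12085 and 12269 TPM in the KO-labelled libraries. The 19331 to 31463 TPM of mt-Atp8 rest on an effective length of 13.1 to 17.1 nucleotides out of 204. By counts per annotated kilobase it held ranks 3 to 5. With partner rows added, mt-Atp6 passed mt-Cytb in every library, at 7842 to 13000 CPM per annotated kilobase (by library total) against 4551 to 7701. By TPM mt-Nd3 held rank 15 in all libraries labelled KO and 14 or 15 in WT, but with Gm28438 added it held ranks 12 to 14 and mt-Nd6 held rank 15 throughout.

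**Figure D5:**
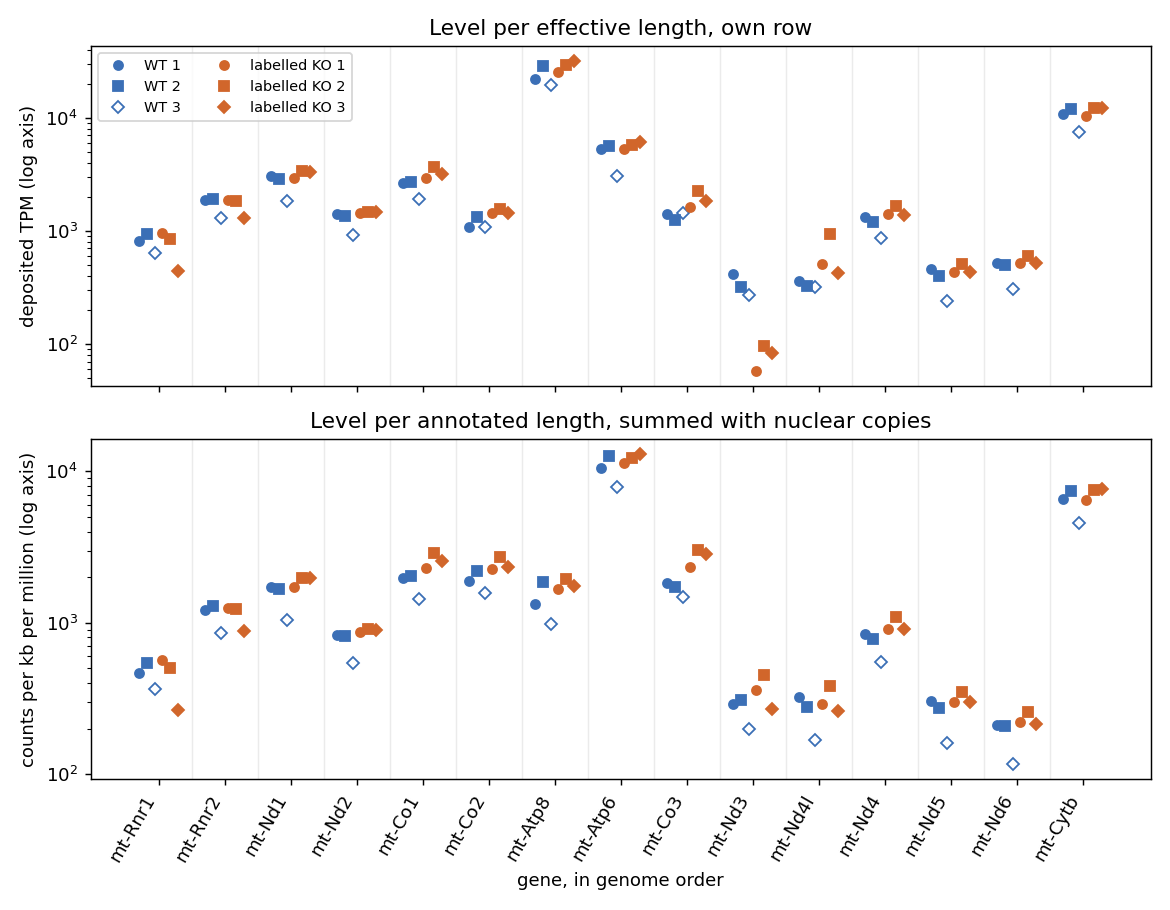
Levels of rRNAs and messengers in genome order on log axes, as deposited TPM of the own row (top) and as CPM per annotated kilobase, by library total, with partner rows added (bottom), 1 point per library (blue WT, orange labelled KO). mt-Nd3 of the KO-labelled libraries lies at 57.9 to 95.9 TPM in the top panel and at 268 to 453 CPM per kilobase in the bottom panel, among its WT points and above.

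Nuclear genes that serve mitochondrial RNA were listed beside the members. Of 43 tested genes of mitochondrial DNA maintenance and RNA transcription, processing and decay, 0 were called in either fit, where 0.0146% and 0.651% of all tested genes were (median log2 fold change 0.06, and 0.13 without WT replicate 3). Mtpap, which adds poly(A) tails to mitochondrial messengers, had 250, 262 and 183 CPM in WT and 248, 261 and 263 CPM in the KO-labelled libraries. It was the lowest in WT replicate 3 among the WT libraries, a pattern of 37.9% of all tested genes. The other named genes of this list (Lrpprc, Slirp, Tfam, Polrmt, Trit1 and Ssbp1) were not lowest there. Lrpprc had 17.0, 11.1 and 18.3 CPM in WT replicates 1, 2 and 3. Lrpprc and Slirp, which together stabilise mitochondrial messengers, had log2 fold changes of -0.46 (SE 0.36) and 0.67 (SE 0.52). Tfam, which packages mitochondrial DNA and starts its transcription, had -0.30 (SE 0.24), and Polrmt, the mitochondrial RNA polymerase, -0.06 (SE 0.50). Trit1, which modifies tRNAs, had -0.58 (SE 0.17, edgeR adjusted p = 0.766) and the single-strand DNA binding protein gene Ssbp1 0.66 (SE 0.24, edgeR adjusted p = 0.766).

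Nuclear subunits of the complexes did not pass the test in the 6 libraries: 0 of 36 for complex I, 0 of 9 for complex III, 0 of 11 for complex IV and 0 of 17 for complex V, where 0.0146% of all tested genes were called. Their median log2 fold changes were -0.04, -0.54, -0.05 and -0.20, against -0.04 over all tested genes. The named genes with the smallest p were Ndufs4 (0.46, SE 0.17) and Ndufs8 (1.06, SE 0.45) of complex I, Uqcrh (-0.54, SE 0.42) and Uqcrc2 (0.12, SE 0.10) of complex III, Cox6b1 (-0.56, SE 0.44) and Cox5a (0.28, SE 0.25) of complex IV, and Atp5g3 (1.16, SE 0.27) and Atp5k (-0.93, SE 0.43) of complex V. Without WT replicate 3, Uqcrh was at 0.05, Cox6b1 at -0.00298, Cox5a at 0.03, Uqcrc2 at 0.08 and Atp5k at -0.47, while Ndufs4, Ndufs8 and Atp5g3 were at 0.39, 1.51 and 1.23. The medians were then 0.33, 0.22, 0.03 and 0.39, against 0.01 over all tested genes. There Ndufa9 of complex I (1.93, SE 0.35, edgeR adjusted p = 0.0482) and Uqcrc1 of complex III (3.29, SE 0.60, edgeR adjusted p = 0.0496) rose, where 0.574% of genes did. These 2 were picked once their values were known. WT replicate 3 had 14.0 CPM of Ndufa9 and 24.9 CPM of Uqcrc1, more than any library labelled KO.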

How the data were processed

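For oocytes the authors deposited expected counts and TPM per gene, from RSEM per the file headers. Trim Galore 0.4.5, STAR 2.6.1c, RSEM 1.3.1, DESeq2 1.42.1 and GRCm38 are named in the submitters' processing notes, without roles. The sperm files hold whole read counts per distinct sequence, as deposited. Groups and replicate numbers came from the titles. Expected counts were rounded and tested in edgeR 4.0.16 with R 4.3.3 (quasi-likelihood, filterByExpr, TMM, Benjamini-Hochberg over all tested genes, threshold 0.05, genotype as the only term). SE is the size of the log2 fold change divided by the root of F. The edgeR fit was also run on simulated counts with set fold changes. These held no deviant library, so they cannot show how the fit handles WT replicate 3. Rows that share reads were found from sums that are whole in all libraries, and then added. The alternatives were other scalings, filters, tools (DESeq2 1.42.0, limma 3.58.1), log2 of TPM plus 1 or 0.1, a replicate block and leaving out each library. Members and lists were chosen with earlier results of these data known. All messengers and rRNAs are named. Of each nuclear list the 2 genes with the smallest p are named, plus Polrmt, Tfam, Lrpprc, Slirp and Mtpap.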

Additional observations from a re-analysis of the deposited data

How the results depend on the processing

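The count of called genes was 2 with edgeR in 6 libraries. It was 101 with DESeq2, 8 with limma-voom and library weights, 9 and 12 with log2 of TPM plus 1 or 0.1, and 1 to 92 when 1 library was left out. The 92 came without WT replicate 3 and the 1 without KO replicate 1. In 5 libraries without WT replicate 3, DESeq2 called 502, limma-voom 11 and edgeR on summed rows 89. Called members were 0 with edgeR in 6 libraries, 2 with DESeq2 (also in 5 libraries), 1 with library weights, 0 to 1 when 1 library was left out, and 1 with limma-voom in 5 libraries. At an unadjusted p under 0.05, edgeR had 396 genes higher and 451 lower. That split was 1084 and 549 without WT replicate 3, and 112 and 1453 with the messenger total as library size.

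With edgeR, mt-Nd3 was -1.76 to -2.18 when 1 library was left out, and 0.48 and 0.27 when summed with Gm28438. The other 12 messengers stayed positive in these fits, from 0.07 for mt-Cytb without WT replicate 3 to 1.26 for mt-Nd4l. mt-Rnr1 was -0.216 to 0.234 and mt-Rnr2 -0.148 to 0.202 over these fits. mt-Rnr1 turned positive without WT replicate 1 (0.00435), WT replicate 2 (0.18) or KO replicate 3 (0.23). mt-Rnr2 turned negative with library weights (-0.0439), log2 of TPM plus 1 or 0.1 (-0.0211 each), without WT replicate 3 (-0.15, summed -0.15, DESeq2 -0.15, limma-voom -0.17), KO replicate 1 (-0.03) or KO replicate 2 (-0.00834), and with the messenger total as library size (-0.31). That scaling moved the median of all genes from -0.04 to -0.48, and turned mt-Nd2 (-0.0361) and mt-Cytb (-0.0894). On summed rows per annotated length, the log2 difference of mt-Nd6 to the heavy-strand messengers was 0.0112 and that of mt-Nd3 to the other 12 was 0.0363, against 0.16 and -2.49 by TPM. The cause of these moves was not tested, except that summing adds the reads given to the nuclear rows. mt-Nd3 is itself among the heavy-strand messengers of the mt-Nd6 ratio.

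With the replicate block, 2 genes and 0 members were called, and mt-Nd3 was -1.95 (SE 0.33, adjusted p = 0.942, edgeR). Same-numbered libraries had correlations of 0.0979, -0.108 and 0.00249 in their deviations from the group means. WT replicates 1 and 2 had near equal correlations with KO replicate 1 (0.0979 and 0.105) and with KO replicate 2 (-0.108 each). These values therefore cannot decide whether the numbers mark pairs, and the numbers were not taken as pairs.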
